A study of Mus musculus with 8 samples.

Results

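The genes followed here encode the subunits of the transcription factor NF-kB and the inhibitors that hold it back, and their mRNA was measured in hypoxic mouse dendritic cells given stem cell factor (SCF). The 10 genes listed were Rel, Rela, Relb, Nfkb1, Nfkb2, Nfkbia, Nfkbib, Nfkbie, Nfkbiz and Bcl3. A gene was measured through the probe set that carries its symbol alone, or the brightest of several, and 9 of the 10 had such a probe set, among 22180 genes in all. Nfkb1, the gene of the p50 precursor p105, had none in the annotation used and was not analysed here. Each of the other 9 genes had exactly 1 such probe set, and all 9 lay above the intensity filter.

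All cells came from wild-type female C57BL/6 mice, whose age the labels do not give. Bone marrow was grown with the growth factor GM-CSF at 20 ng/ml for 7 days at 21% oxygen, and cells carrying CD11c were taken on magnetic beads to a purity above 98%. Every culture then spent 2 days at 2% oxygen (14 mmHg) with GM-CSF, so no array shows these cells at normal oxygen. For the last 6 hours the cells either received SCF at 100 ng/ml, which binds the tyrosine kinase receptor Kit on the cell surface, or stayed in medium. The 4 experiments, named BC, D2, E and I, each gave 1 medium and 1 SCF array, so there were 8 arrays in 4 pairs. Values are log2 of the deposited intensity, on which a difference of 1 is a doubling, and levels of different genes are not compared because probe sets differ in brightness.

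The purified cells carried the RNA that their label calls for. Itgax, the gene of CD11c, measured 10.08 ± 0.12 (SD, n = 4) in medium and 10.02 ± 0.23 with SCF, and all 7 dendritic cell markers measured lay above the filter of 4.05. Kit stood at 6.74 ± 0.24 in medium and 6.71 ± 0.26 with SCF. All 7 macrophage markers were also above the filter, against 3 of 7 mast cell and basophil markers and 1 of 7 neutrophil, 1 of 4 B cell, 1 of 6 T and NK cell and 1 of 6 stromal and endothelial markers. The culture is a bulk sample, in which fewer cells of a type and less RNA per cell cannot be told apart.

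NF-kB works as pairs of Rel family proteins. In the canonical arm, RelA or c-Rel pairs with p50 and is held in the cytoplasm by the inhibitors IkB-alpha, IkB-beta and IkB-epsilon (Nfkbia, Nfkbib, Nfkbie), until the IKK kinases mark the inhibitor for destruction. In the non-canonical arm, the kinase NIK drives processing of p100, the product of Nfkb2, to p52, which pairs with RelB. Bcl-3 and IkB-zeta (Nfkbiz) are IkB relatives that act in the nucleus on p50 or p52 bound to DNA. RelB is known for its role in dendritic cell maturation, and several of these genes are themselves induced by NF-kB. Arrays read mRNA only, so inhibitor decay, p100 processing and nuclear entry were not measured.

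The promoters of several members hold the DNA element that the family binds. RefSeq (build GRCm38.p6) gave promoter windows, from 250 bases before to 50 bases after a gene start, for 7 of the 9 genes, and none for Relb and Nfkbiz. The kB consensus, a motif of 10 bases searched on both strands, matched in the windows of 5 of these 7 genes (Rel, Nfkb2, Nfkbia, Nfkbie and Bcl3). Of all 32851 windows 8.46% held a match, and 9.55% of the 27025 genes had one in any of their windows. A match is a description of the letters, not a measured binding site, and these arrays did not measure binding. The sites are given in the direction of each gene, 30 bases each, with the match in capitals.
Nfkbia, chr12:55492657-55492686, minus strand: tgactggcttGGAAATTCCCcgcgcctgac
Rel, chr11:23771042-23771071, minus strand: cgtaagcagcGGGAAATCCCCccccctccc
Nfkbie, chr17:45555584-45555613, plus strand: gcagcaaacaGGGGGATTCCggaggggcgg
Bcl3, chr7:19822734-19822763, minus strand: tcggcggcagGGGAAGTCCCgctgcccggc
Nfkb2, second start, chr19:46305695-46305724, plus strand: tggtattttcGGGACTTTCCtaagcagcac
Counted from the gene start, the match begins at position −29 in Nfkbia, −92 in Rel and −106 in Nfkbie, and in Bcl3 at base 3 of the transcript. The matches of Rel and Nfkb2 with 11 capitals are overlapping matches on both strands.

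Nfkb2 had the most matches, but also the most sequence searched, with windows for 3 starts where each other member with a window had 1. Each of its windows held a match, but that of the third start is the same site as the one shown for the second. The window of the second start held a further match, beginning at position −236, which is not shown. The 250 bases before the first start of Nfkb2 hold 2 separate matches, at positions −39 and −11, and are shown whole because this gene carries the non-canonical arm.
Nfkb2, first start, chr19:46304487-46304736, plus strand: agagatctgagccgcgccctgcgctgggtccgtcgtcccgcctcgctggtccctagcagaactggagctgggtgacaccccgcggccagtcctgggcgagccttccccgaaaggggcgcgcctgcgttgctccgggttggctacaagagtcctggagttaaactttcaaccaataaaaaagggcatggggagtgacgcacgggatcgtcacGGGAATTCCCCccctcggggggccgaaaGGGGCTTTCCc
No match was found in the windows of Rela and Nfkbib, which says only that these letters are not there. The matches lay in both arms, in Rel, Nfkbia and Nfkbie of the canonical arm, Nfkb2 of the non-canonical arm and the nuclear gene Bcl3.

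The comparison of SCF with medium asked whether 6 hours of SCF altered the mRNA of these genes. In limma's paired fit none of the 9 genes reached an adjusted p under 0.05, and neither did any of the 12668 probe sets tested (0%). At an unadjusted p under 0.05 there was 1 member, Relb, beside 533 probe sets (4.21%). The fitted differences were small in every member, from 0.984-fold for Nfkbib to 1.09-fold for Relb. The outermost limits of the members' 95% intervals, not adjusted for the number of genes, were 0.904-fold (Nfkbib) and 1.21-fold (Nfkbiz), so a change of 1.5-fold lay outside the interval of every member measured. The medium and SCF arrays overlapped in all 9 genes, where they did not overlap in 0.971% of all probe sets tested.

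**Figure D1:**
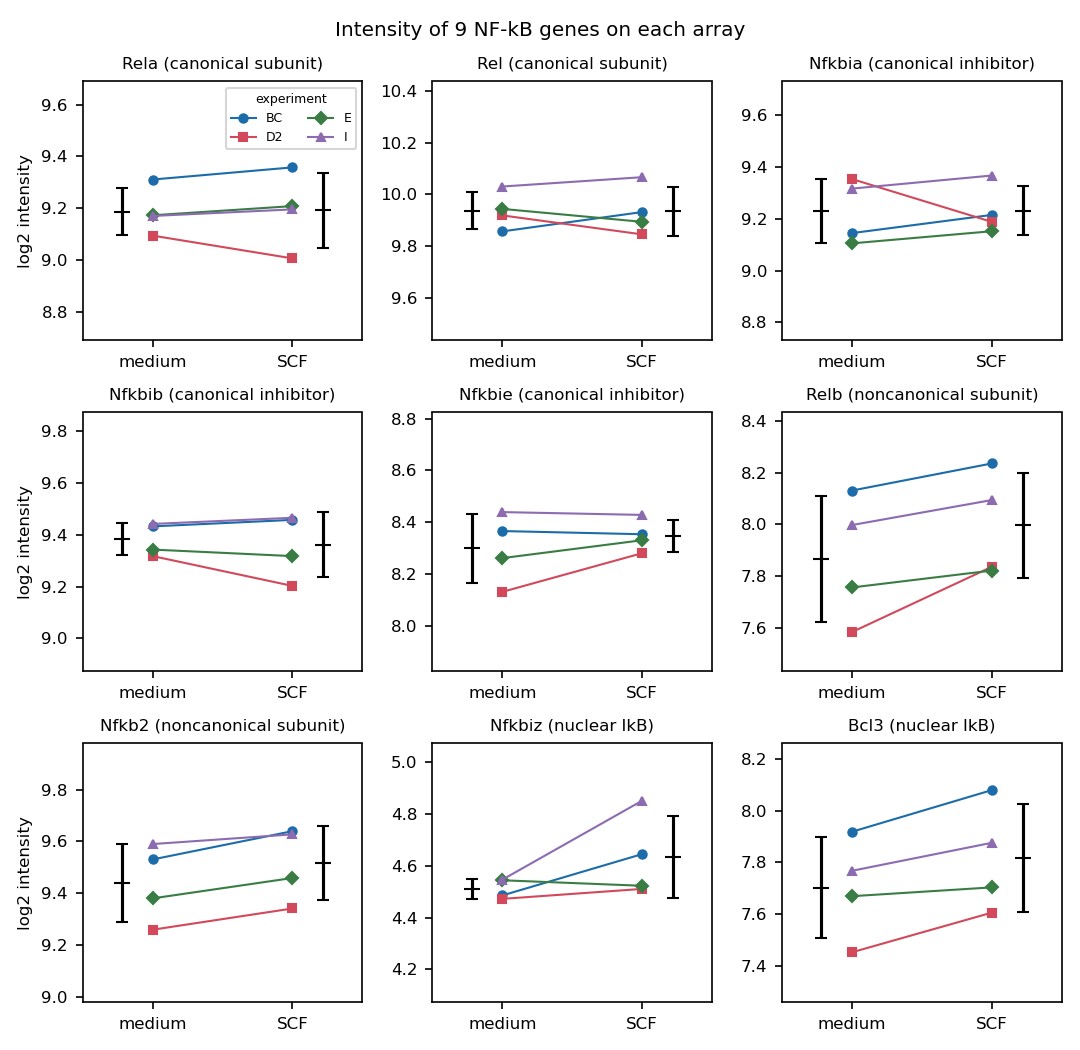
Log2 intensity (vertical axis, each panel spanning 1 log2 unit) of 9 NF-kB genes on the 4 medium and 4 SCF arrays, with a line joining the arrays of one experiment and black bars for the mean ± SD of each group (n = 4). Relb, Nfkb2 and Bcl3 slope upward in all 4 experiments, while the lines of Rela, Rel, Nfkbia and Nfkbib slope downward in D2.

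Among the canonical subunits, Rela, the main transactivating subunit in most cells, had medium values of 9.31 (BC), 9.09 (D2), 9.17 (E) and 9.17 (I), and SCF values of 9.36, 9.01, 9.21 and 9.20 in the same order. BC was highest and D2 lowest in both groups, and the groups overlapped almost fully. The log2 difference of Rela was 0.0050 (SE 0.052, 95% interval −0.12 to 0.13, limma adjusted p = 0.998). Rel encodes c-Rel, a subunit abundant in blood cells and known for its role at interleukin 12 genes. It lay between 9.86 and 10.03 in medium and between 9.85 and 10.07 with SCF. Its difference was −0.0031 (SE 0.053), above 0 in 2 experiments and below 0 in the other two.

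The canonical inhibitors did not differ beyond their spread either. Nfkbia, the quickly resynthesised inhibitor whose mRNA is a common readout of NF-kB activity, had medium values of 9.14 (BC), 9.35 (D2), 9.11 (E) and 9.32 (I). The SCF values were 9.22, 9.19, 9.15 and 9.37. D2 alone lay below 0 among the 4 experiments, and the log2 difference over all pairs was 0.00056 (SE 0.060, 95% interval −0.14 to 0.14, limma adjusted p = 1.00). Without D2 it was 0.056. Nfkbib, the gene of the more stable inhibitor IkB-beta, had a difference of −0.023 (SE 0.052), or 0.0079 without D2. Nfkbie stood opposite to the other inhibitors in D2, where it differed by 0.15 while Nfkbia differed by −0.17 and Nfkbib by −0.12. Over all pairs its difference was 0.049 (SE 0.054), or 0.015 without D2.

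In the non-canonical arm both genes lay above 0 in every experiment. Relb stood in medium at 8.13 (BC), 7.58 (D2), 7.76 (E) and 7.997 (I), and with SCF at 8.24, 7.84, 7.82 and 8.09. Each SCF array was higher than its own medium array, yet the medium arrays of BC and I lay above the SCF arrays of D2 and E. The log2 difference of Relb was 0.13 (SE 0.055, 95% interval 0.0013 to 0.26, limma adjusted p = 0.945), which did not pass. D2 differed most, by 0.25, and the difference was 0.089 without it.

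Nfkb2, the gene of p100 and p52, stood in medium at 9.53 (BC), 9.26 (D2), 9.38 (E) and 9.59 (I), and with SCF at 9.64, 9.34, 9.46 and 9.63. Its pairs were the most even of all members, with differences of 0.11, 0.08, 0.08 and 0.04 and an SD of 0.030. The log2 difference was 0.077 (SE 0.049, 95% interval −0.038 to 0.19, limma adjusted p = 0.945).

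Both nuclear IkB genes had fitted differences above 0, and neither passed. Bcl3, a coactivator on p52 and p50, stood in medium at 7.92 (BC), 7.45 (D2), 7.67 (E) and 7.77 (I), and with SCF at 8.08, 7.61, 7.70 and 7.88. It was above 0 in 4 of 4 experiments, with a log2 difference of 0.11 (SE 0.052, 95% interval −0.00635 to 0.23, limma adjusted p = 0.945). Nfkbiz, an inducible cofactor at interleukin 6 and other secondary response genes, was a dim gene, with a medium mean of 4.51 ± 0.039 (SD, n = 4) and an SCF mean of 4.63 ± 0.16, not far above the filter. In medium its 4 arrays lay between 4.47 and 4.55, and with SCF at 4.65 (BC), 4.51 (D2), 4.52 (E) and 4.85 (I). The high SCF array of I carried much of its difference of 0.12 (SE 0.067), which was 0.059 without I.

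Set side by side, the arms had unlike differences, which are described here without a test because the genes were chosen with results known. The 5 canonical genes had a median fitted log2 difference of 0.00056, with 3 above 0, and lay above 0 in 12 of their 20 pairs. The 2 non-canonical genes had a median of 0.10 and lay above 0 in 8 of 8 pairs, and the nuclear genes Bcl3 and Nfkbiz had a median of 0.12, above 0 in 7 of 8. Genes of an arm share the same 4 array pairs, so these counts are not independent observations. In a single experiment, 47.9% (BC) to 51.7% (I) of all probe sets tested lay above 0. Over all 9 genes 7 were above 0, with a median of 0.049, beside 50.5% above 0 and a median of 0.00077 over all probe sets tested. Relb, Nfkb2 and Bcl3, or 3 of 9 genes, were above 0 in all 4 experiments, beside 6.43% of probe sets. They were so as deposited, with the array medians equalized and after a repeated quantile normalization. With the medians equalized, however, Nfkb2 differed by only 0.0026 in I.

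The gap between the arms was widest in D2. There the non-canonical median stood 0.26 above the canonical one, against 0.060 in BC, 0.037 in E and 0.042 in I. In D2 4 of the 5 canonical genes lay below 0 while Relb had its largest difference of the 4 experiments. Without D2 the canonical median was 0.020 and the non-canonical median 0.082.

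**Figure D2:**
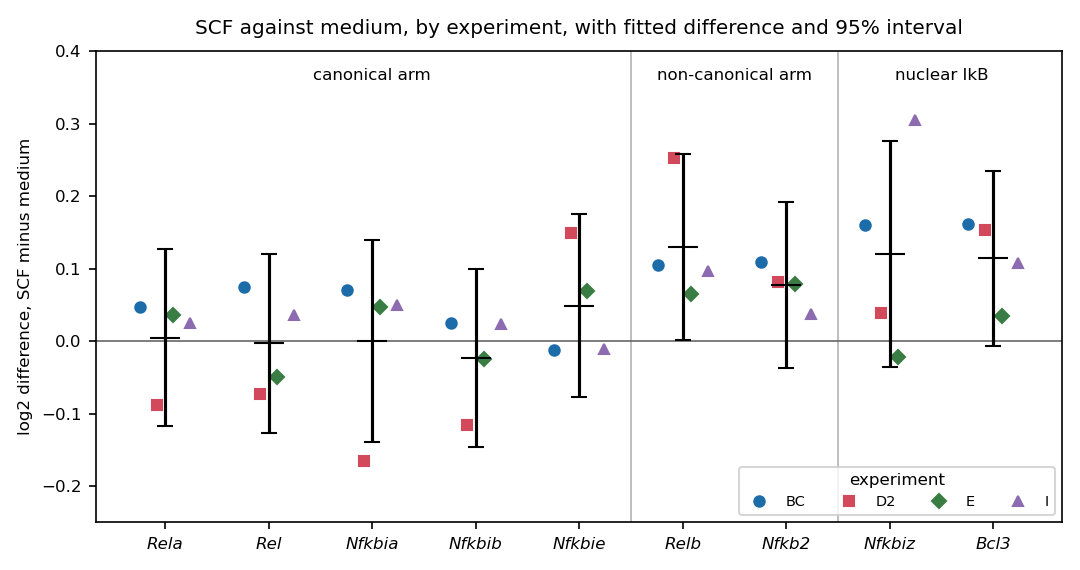
Log2 difference, SCF minus medium (vertical axis), for each NF-kB gene in each of the 4 experiments (coloured points), with the fitted difference and its 95% interval in black. The canonical genes scatter around 0 with D2 low in 4 of 5, and all 8 points of Relb and Nfkb2 lie above 0.

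Macrophage and dendritic cell markers were followed beside these differences. Of the 7 macrophage markers 6 had a fitted difference below 0 with SCF, and their summed intensity ranged from 2068 to 2605 in medium and from 1849 to 2617 with SCF. By experiment that sum differed by −0.23 (BC), 0.070 (D2), 0.0064 (E) and −0.031 (I) on the log2 scale. Mertk, a receptor gene for the uptake of dead cells, had the smallest unadjusted p of these markers, with a difference of −0.20 (SE 0.073), made up of −0.46 in BC and −0.14 to −0.090 in the other experiments. The summed dendritic cell markers ranged from 6874 to 7304 in medium and from 7072 to 7235 with SCF, with 6 of 7 fitted differences above 0. Itgax was the exception, at −0.062, and the marker Ccr7 also stands in the list of kB target genes below. The part of either set of markers in the values of the NF-kB genes was not tested.

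Relb and Bcl3 also differed between the 4 experiments. In limma's moderated F test between experiments both passed the threshold of 0.05, 2 of 9 members beside 424 of 12668 probe sets (3.35%). Relb, averaged over both arrays of a pair, stood at 8.18 in BC, 8.05 in I, 7.79 in E and 7.71 in D2, a range of 1.39-fold (limma adjusted p = 0.0452). Bcl3 stood in the same order at 7.999, 7.82, 7.69 and 7.53, a range of 1.38-fold (limma adjusted p = 0.0491). The ranges of both, 0.47 on the log2 scale, exceeded those of 93.4% and 93.2% of probe sets. Their differences with SCF of 0.13 and 0.11, neither of which passed, exceeded in absolute size those of 90.9% and 86.8%. A range over 4 experiments and a mean difference are unlike measures, so their sizes are not compared directly.

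Nfkb2 had a similar spread on a smaller scale, at 9.61 in I, 9.59 in BC, 9.42 in E and 9.30 in D2 (limma adjusted p = 0.0916). Rela ranged over 0.28 with BC at the top and D2 at the bottom (limma adjusted p = 0.173). The remaining 5 genes ranged between 0.17 and 0.23, with limma adjusted p from 0.269 to 0.432, near the median range of 0.20 of all probe sets. D2 was lowest in 8 of 9 genes, with Nfkbia, lowest in E, as the exception. The share of all probe sets that were lowest in D2 was not counted, and the 9 genes share the same arrays. Genes of the pathway lists below were in part lowest in D2 as well, among them Ikbke, Traf2 and Irf1, while Traf1 and Ccl4 were not. Experiment I was highest in 6 genes and BC in 3.

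The calls of Relb and Bcl3 lay close to the threshold, and their limma adjusted p ranged from 0.00565 to 0.154 for Relb and from 0.00737 to 0.179 for Bcl3 over 11 alternatives. Relb alone passed with array medians equalized or a robust variance model, and neither did without the intensity filter or without any 1 of the 4 experiments. Rela and Nfkb2 joined them with a variance trend, as did Nfkb2 with a stricter filter. Cell culture and array handling of an experiment cannot be told apart.

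**Figure D3:**
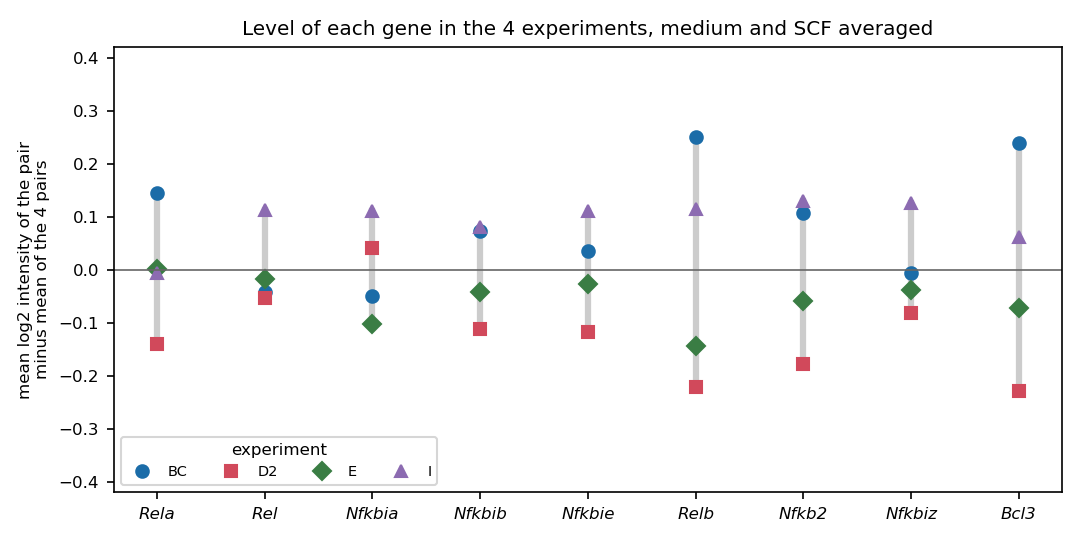
Mean log2 intensity of the medium and SCF arrays of each experiment minus the mean of the 4 experiments (vertical axis), for 9 NF-kB genes. Relb and Bcl3 spread over 0.47 with BC at the top and D2 at the bottom, and D2 is the lowest point in 8 of 9 genes. The share of all probe sets that were lowest in D2 was not counted.

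The summed intensity of the 7 mast cell and basophil markers had the order of experiments of Relb and Bcl3, but its single markers did so only in part. The sum was 225 in BC, 217 in I, 190 in E and 165 in D2. That order was not particular to these markers. The kinase genes Ikbkb and Ikbke of the lists below had it too, while other genes of those lists did not. Its share over all probe sets was not counted. Bright probe sets weigh most in such a sum, and Kit, with a mean of 6.72 over all arrays, was the brightest of the 7 markers. Of these, Cpa3, a mast cell protease gene, and Kit differed between experiments (limma adjusted p = 0.0333 and 0.0412, passing in 7 of 10 and 6 of 11 alternatives), with Cpa3 at 5.02 in BC, 4.82 in I, 4.34 in E and 4.01 in D2. Kit was highest in I at 6.96, followed by BC at 6.88, E at 6.65 and D2 at 6.41. Gata2, a transcription factor gene of these cells, stood at 5.35 in BC, 5.18 in E, 5.04 in D2 and 4.94 in I (limma adjusted p = 0.0908). The defining markers Fcer1a, Ms4a2, Mcpt8 and Tpsb2 were all below the filter. Macrophage markers were highest in E, with a summed intensity of 2611 against 2006 to 2120 in the others. Their part in the levels of Relb and Bcl3 was not tested.

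Genes around the NF-kB subunits were described from 6 lists of 81 genes, of which 64 were tested. None passed the adjusted threshold in limma (all at an adjusted p of 0.945 or above), and 5 had an unadjusted p under 0.05, 4 of them above 0, beside 4.21% of all probe sets. Of the 64 genes, 12 were above 0 in all 4 experiments, beside 6.43% of all probe sets, and only some of them are marked so below.

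Of the kinases and IkB ubiquitin ligases 11 were tested and 0 passed in either direction, with 4 above 0 and a median of −0.012. Map3k14, the gene of NIK, which starts the non-canonical arm, stood in medium at 7.47 (BC), 7.43 (D2), 7.46 (E) and 7.67 (I), and with SCF at 7.63, 7.57, 7.51 and 7.77. It was above 0 in 4 of 4 experiments with a log2 difference of 0.11 (SE 0.050). Ikbke, an IKK-related kinase gene, differed by 0.12, or 0.068 without D2. Ikbkg, the gene of the IKK scaffold NEMO, stood at −0.094, but at −0.037 without BC and −0.14 without I. Map3k7, the gene of the upstream kinase TAK1, stood at −0.072, or −0.041 without E and −0.11 without D2.

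Receptors and ligands that feed the non-canonical arm had 9 tested members, of which 0 passed, 5 were above 0 and the median was 0.010. Cd40, a costimulatory receptor that signals through NIK, had means of 7.71 ± 0.11 (SD, n = 4) in medium and 7.87 ± 0.17 after SCF. The log2 difference was 0.16 (SE 0.057), above 0 in 4 of 4 experiments. Tnfrsf11a, the gene of RANK, differed by 0.083. The ligand genes Tnfsf13b (BAFF) and Lta (lymphotoxin alpha) stood at −0.087 and −0.056, the latter at −0.0071 without BC and −0.11 without D2. The genes Cxcl13 and Madcam1, the measured part of a list of lymphoid genes that p52 and RelB induce, stood between −0.077 and 0.063, and Cxcl12 was below the filter.

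Among receptor-proximal adaptors 11 were tested and 0 passed, with 8 above 0 and a median of 0.035. Traf2, an adaptor that restrains NIK and serves the canonical arm, was above 0 in 4 of 4 experiments at 0.15 (SE 0.051). Traf1 differed by 0.12, or 0.078 without BC and 0.18 without I, and Traf5 by 0.10, or 0.055 without D2. Birc2, the gene of the ubiquitin ligase cIAP1 that works with Traf2, was below 0 in 4 of 4 at −0.10.

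Negative regulators had 11 tested members and 0 that passed, with 4 above 0 and a median of −0.0037. Nfkbil1, an IkB-like gene, was the only gene of the 6 lists whose groups did not overlap, at 5.73 to 5.90 in medium and 5.95 to 6.02 with SCF, which makes 1 of 64 beside 0.971% of all probe sets. Its log2 difference was 0.17 (SE 0.057), or 0.11 as the mean of its 2 probe sets. Nfkbid, a nuclear IkB gene, differed by 0.14, but by 0.073 without D2 and 0.24 without E. Zc3h12a, the gene of an RNase that degrades inflammatory mRNA, differed by 0.12, or 0.057 without D2 and 0.19 without I. Irak3, the gene of an inhibitor of Toll-like receptor signalling, was below 0 in 4 of 4 at −0.077.

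Of 26 target genes induced through kB sites 20 were tested and 0 passed, with 14 above 0 and a median of 0.037. Il1a stood at −0.25 (SE 0.096), or −0.14 without BC, and was thus opposite to the list's median. Ccl4, a chemokine gene, stood at 0.15 (SE 0.060) and the stress gene Gadd45b at 0.097, or 0.056 without BC. Irf1 was above 0 in 4 of 4 at 0.080. Il1b, Csf2, Vcam1, Ptgs2 and Nos2 were below the filter.

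**Figure D4:**
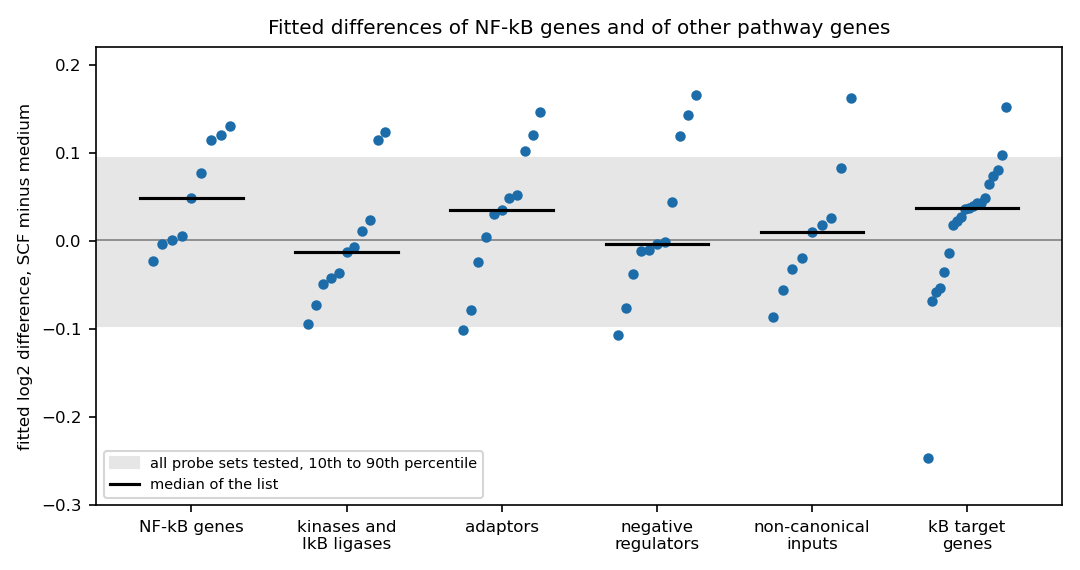
Fitted log2 difference, SCF minus medium (vertical axis), of the 9 NF-kB genes and of the tested genes of 5 other lists (points), with each list's median as a black line and the 10th to 90th percentile of all probe sets tested in grey. The medians lie between −0.012 and 0.049.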

How the data were processed

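RNA was read on 1 Affymetrix array per culture. The deposited table gives an intensity for each probe set on each array, and the submitters' processing notes name RMA; its version is not given in the sources used. Since the values lay on a linear scale, they were log2 transformed without a pseudocount and used as they stood. A single symbol was given to 23521 of 41345 probe sets in the platform annotation, several to 1814, and 16010 were unnamed here. Entrez numbers of the members matched RefSeq symbols in 9 of 9. Probe sets with a symbol entered the tests when their mean log2 intensity was at least 4.05, the median among such probe sets. No detection call was at hand, so signal over background is unknown, and the number of arrays limits the precision. The main comparison used limma 3.58.1 in R 4.3.3 (lmFit, eBayes), two-sided, with a fixed effect for experiment; p-values were adjusted by Benjamini-Hochberg over 12668 probe sets, and 0.05 was the threshold. The moderated F of the same fit tested differences between experiments. It has 3 residual degrees of freedom, raised to 7.39 by the prior. Both tests were checked on simulated data.

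Pairing follows the series' design text, by which the cells of an experiment were generated together. With group means removed, the medium and SCF arrays of an experiment correlated at 0.362 to 0.461. The highest such correlation between a medium and an SCF array of different experiments was 0.307. The members, lists and tests were chosen with earlier results of these data known. All members were named, with Itgax and Kit as checks, and from each pathway list of over 2 tested genes the 4 with the smallest unadjusted p. Cpa3, Gata2, Mertk, Fcgr1, Ikbkb, the genes below the filter and those of the lymphoid list were named after their values were seen. Alternatives were the pairing, 2 further normalizations, 2 filters, 2 variance models, the mean of a gene's probe sets, and leaving out each experiment.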

Additional observations from a re-analysis of the deposited data

How the results depend on the processing

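The count of probe sets called for SCF against medium stayed at 0 under all alternatives run, including 0 when the replicate block was dropped and 0 when it was random, and no member passed under any of them. At an unadjusted limma p under 0.05 the count of members was 1 (Relb) in the main fit. It was 0 without the block, with a random block and with any 1 experiment left out, 2 with the stricter filter and 3 with the variance trend. Relb, Nfkb2, Nfkbiz, Nfkbie and Bcl3 stayed above 0 in every alternative. Rela, Rel, Nfkbia and Nfkbib, all near 0, turned. Nfkbia was at −0.0041 with array medians equalized, −0.0083 after a repeated quantile normalization, and between −0.023 (without BC) and 0.056 (without D2) with 1 experiment left out. Leaving out 1 experiment gave −0.0091 to 0.036 for Rela, −0.029 to 0.020 for Rel, −0.039 to 0.0079 for Nfkbib and −0.060 to 0.016 for Kit. The median over the members was 0.027 with the stricter filter, which drops Nfkbiz. The mean of a gene's probe sets changes no member, since each has 1.

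The count of probe sets that differ between experiments was 424, but 194 with no intensity filter, 1396 with the stricter filter, 1527 with a variance trend and 38 to 177 with 1 experiment left out, where the fit has fewer arrays. The count of members called was 2, but 1 with array medians equalized, 1 with a robust variance model, 0 with no filter, 4 with the variance trend and 0 with any 1 experiment left out. The cause was not tested. The fit without the block cannot test experiments.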

Other observations

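Fcgr1 and Ccl4, measured beside the NF-kB family, also differed between the experiments, over ranges of 1.02 and 0.71 on the log2 scale. Fcgr1, the gene of the high-affinity IgG receptor and a macrophage marker, stood at 8.70 in E, 8.25 in D2, 7.93 in BC and 7.69 in I (limma adjusted p = 0.0360 in the moderated F test). Ccl4 stood at 8.23 in E, 8.06 in D2, 7.92 in BC and 7.53 in I (limma adjusted p = 0.0271). Over 11 alternatives Fcgr1 passed in 8 and Ccl4 in 9, and neither passed with E or I left out. Their order was that of neither Relb nor Bcl3, which were highest in BC. The pair was picked with their values in view.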
